A study of Mus musculus with 7 samples.

Results

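The peptide hormone genes of the pancreatic islet were followed in islets of 7 pregnant mice: Ins1 and Ins2 (insulin), Iapp (amylin), Gcg (glucagon), Sst (somatostatin), Ppy (pancreatic polypeptide), Pyy (peptide YY), Ghrl (ghrelin), Npy (neuropeptide Y) and Ucn3 (urocortin 3). The genes were chosen by name, and a gene counted as measured where the platform annotation gave its symbol alone to a probe set. This left 9 of the 10 genes, each with 1 probe set, among 19938 genes tested, and Ins1 was not analysed here. The islets came from 4 PrlR+/- mice, heterozygous for a null allele of the prolactin receptor gene, and from 3 PrlR+/+ mice, which carried 2 intact copies. All were females on a C57BL/6 background, mated at 12 to 16 weeks of age and killed on day 15 of pregnancy, and each mouse gave 1 array. Heterozygotes keep 1 intact copy of the receptor gene, and the labels name no cell type to which the null allele is limited. With 4 arrays against 3, precision is limited by the number of mice.

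Each islet hormone is the product of a specialised endocrine cell. Beta cells store insulin together with amylin, alpha cells make glucagon, delta cells somatostatin, PP cells pancreatic polypeptide and the rare epsilon cells ghrelin. Prolactin and placental lactogens act through the prolactin receptor on beta cells, which in rodent pregnancy grow in number and secrete more insulin. Setting PrlR+/- islets beside PrlR+/+ islets asks whether hormone transcripts differ at that stage when 1 receptor allele is lost. In whole islets, fewer cells of a type and less RNA per cell cannot be told apart.

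No hormone transcript passed the test between the genotypes. Values are the deposited log2 expression values, differences are PrlR+/- minus PrlR+/+, and tests are limma's over all 19938 genes with Benjamini-Hochberg adjustment, with an adjusted p under 0.05 as the threshold. Over all genes 0 passed by limma, so that percent called was 0, and 438 genes, or 2.2%, had an unadjusted p under 0.05. Of the 9 hormone genes 0 had an unadjusted p under 0.05 and 0 had groups that did not overlap, where 2.24% of all genes had such groups. The adjusted p of the 9 genes lay between 0.99 and 0.999. Means were higher in PrlR+/- islets for 8 of the 9, against 56.2% of all genes, and the median difference was 0.05 for the hormones and 0.01 over all genes. The count of 8 rested in part on 1 mouse: without PrlR+/+ 2 it was 5 of 9, and with weights for array quality it was also 5 of 9.

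The 4 hormone genes that read highest on the arrays are shown by the 150 bases before their transcription start, because each stands for a different endocrine cell type and all 4 lie against the top of the measured range. The sequences are from RefSeq (GRCm38.p6), 5′ to 3′ on the strand of the gene, at chr11:102101320-102101469 (minus strand) for Ppy, chr16:23890845-23890994 (minus) for Sst, chr2:62483654-62483803 (minus) for Gcg and chr6:142298275-142298424 (plus) for Iapp. Capitals mark matches, on either strand, to TATAA (a core of the TATA box), TAAT (a core bound by homeodomain factors such as Pdx1), CATCTG (an E-box core of the kind bound by Neurod1) and TGACGTCA (the cAMP response element).
Ppy: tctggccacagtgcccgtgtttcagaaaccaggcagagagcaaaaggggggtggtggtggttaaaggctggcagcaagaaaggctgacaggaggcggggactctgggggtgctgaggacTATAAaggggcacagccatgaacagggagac
Sst: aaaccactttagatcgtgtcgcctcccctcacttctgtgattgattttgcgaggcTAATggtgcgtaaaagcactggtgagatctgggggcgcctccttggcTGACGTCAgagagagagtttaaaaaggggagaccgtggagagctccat
Gcg: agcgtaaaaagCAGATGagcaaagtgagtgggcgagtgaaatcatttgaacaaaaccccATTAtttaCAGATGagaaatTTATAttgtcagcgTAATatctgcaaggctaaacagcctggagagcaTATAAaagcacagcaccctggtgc
Iapp: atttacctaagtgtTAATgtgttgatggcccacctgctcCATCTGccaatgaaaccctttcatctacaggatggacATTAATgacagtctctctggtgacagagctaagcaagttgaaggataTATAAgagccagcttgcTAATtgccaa
TGACGTCA stood 48 to 41 bases before the start of Sst and in none of the other 3 windows, and 1.36% of 32851 promoter windows of this length held it. Gcg held CATCTG 2 times and Iapp 1 time, against 8.81% of windows with at least 1 match. TAAT was found 4 times in Iapp, 2 times in Gcg, 1 time in Sst and 0 times in Ppy, and 37.8% of windows held it. The pair of Iapp matches at 74 to 69 bases before the start overlap each other. TATAA lay within 31 bases of the start in Ppy, Gcg and Iapp and was held by 14.2% of windows. These matches describe the letters of the windows and were not set against the expression values.

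Most of the hormone transcripts were bright on every array, and Npy and Ghrl lay lower. Ordered by mean log2 level over the 7 mice, Ppy was at 13.64 ± 0.05 (SD, n = 7), Sst at 13.61 ± 0.12, Gcg at 13.52 ± 0.06, Iapp at 13.44 ± 0.06, Ins2 at 13.30 ± 0.04, Pyy at 13.03 ± 0.16, Ucn3 at 12.38 ± 0.18, Npy at 10.84 ± 0.32 and Ghrl at 8.70 ± 0.41. Levels of different genes come from different probe sets, whose brightness per transcript differs, so this is an order of array signals and not of transcript numbers. Ins2, the insulin gene measured here, stood below the transcripts of PP, delta and alpha cells, which are the less numerous cells of a mouse islet.

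The arrays have a top, and 5 of the hormones sat against it. The highest value of any probe set was 13.85 to 13.90 on the PrlR+/- arrays and 13.89 to 13.97 on the PrlR+/+ arrays. Ppy, Sst, Gcg, Iapp and Ins2 were within 1 log2 unit of that value on every array, as were 24 of the 19938 genes in all. Pyy was within 1 unit on 6 of the 7 arrays and was 1.05 units below the maximum in PrlR+/+ 2. Ppy ranked between 1 and 7 among all genes on an array, Gcg between 5 and 10, Ins2 between 12 and 26, and Ucn3 between 88 and 194. Npy ranked between 575 and 1531 and Ghrl between 4040 and 8105, so that 59.4% of genes lay below Ghrl on the array where it ranked lowest.

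**Figure D1:**
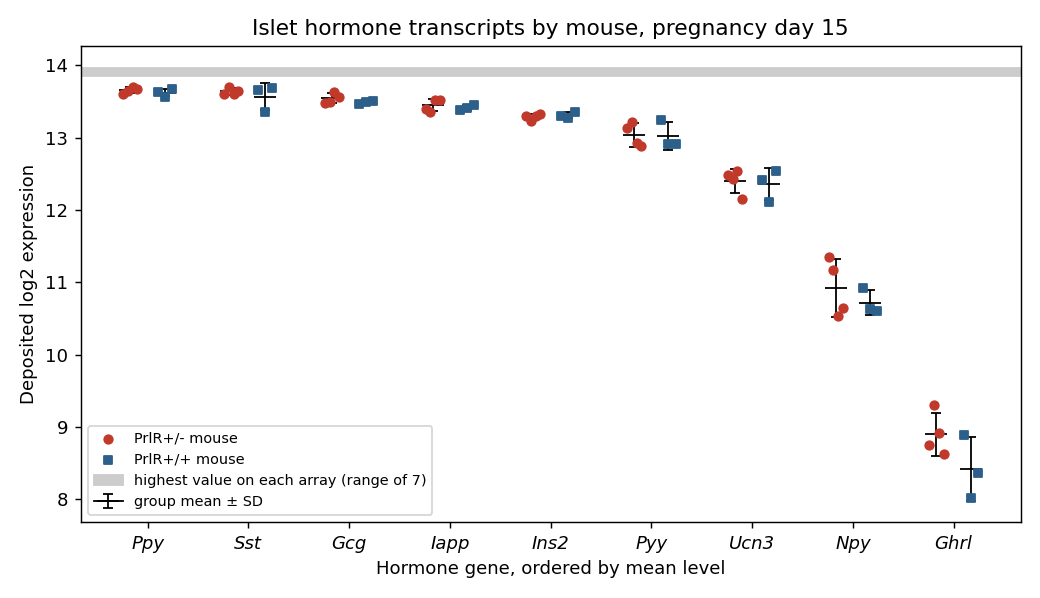
Deposited log2 expression of the 9 measured hormone genes (y axis) in each mouse, with PrlR+/- mice as red circles and PrlR+/+ mice as blue squares, group means with SD in black and the range of the array maxima, 13.85 to 13.97, as a grey band. Ppy, Sst, Gcg, Iapp and Ins2 lie in a narrow strip below the band, and Npy and Ghrl lie well below it with wider scatter.

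Neighbours in this order were separated in part only. Between Ppy and Sst the mean difference within a mouse was 0.03 ± 0.09 (SD, n = 7), and Ppy was the higher in 3 of 7 mice. Sst exceeded Gcg in 5 of 7 mice, by 0.09 ± 0.13 on average, so neither of these pairs differed beyond its spread. Ppy, however, exceeded Gcg in 7 of 7 mice, by 0.12 ± 0.04 (SD, n = 7). Gcg exceeded Iapp in 7 of 7 mice by 0.05 to 0.14, and Iapp exceeded Ins2 in 7 of 7 by 0.09 to 0.22, although the ranges over mice overlapped. Ins2 was above Pyy in 7 of 7 mice by as little as 0.01. From Pyy downward the ranges of neighbours no longer overlapped, with gaps within a mouse of 0.37 to 0.82 between Pyy and Ucn3, 1.14 to 2.01 between Ucn3 and Npy, and 1.61 to 2.61 between Npy and Ghrl.

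The spread between mice was small for most of the hormones near the top, but not for Sst or Pyy. The SD within genotypes was 0.042 for Ins2, 0.046 for Ppy, 0.055 for Gcg, 0.067 for Iapp and 0.12 for Sst. Pyy, with a mean in the same unit of level, had an SD of 0.172, more than 77.1% of the genes there. All 35 genes with a mean of 13 or more had a median SD of 0.0897, against 0.106 for 192 genes between 12 and 13, 0.138 for 643 genes between 11 and 12 and 0.156 for 3083 genes between 8 and 9. Ghrl, at 0.358, varied more than 93.4% of the genes in its unit of level, and Npy, at 0.326, more than 92.4% of those in its own. Ucn3, at 0.192, varied more than 81.2% of the genes between 12 and 13. Whether a limit of the array narrows differences in the brightest hormones was not tested.

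**Figure D2:**
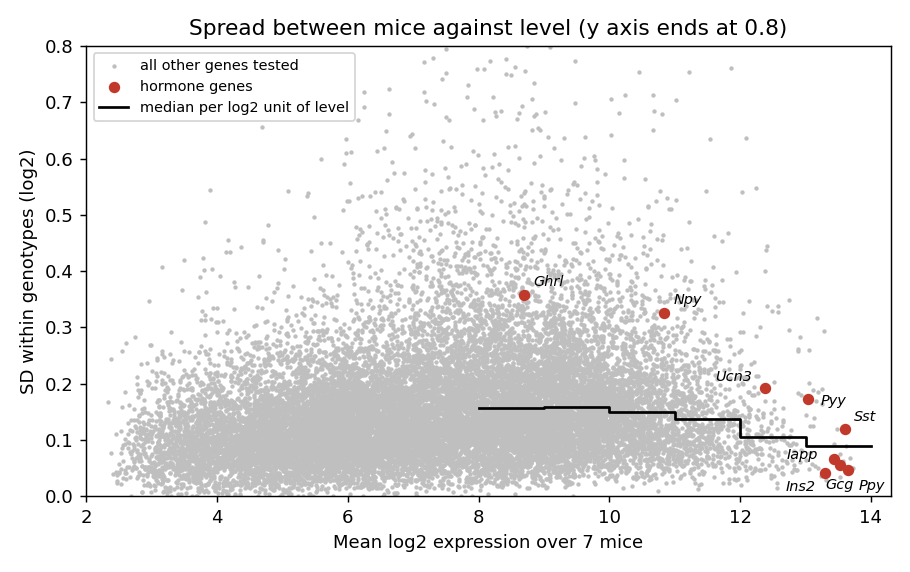
SD of each gene within genotypes (y axis, log2) against its mean log2 expression over 7 mice (x axis), with hormone genes in red, other genes in grey and the median per unit of level as a black line from 8 upward. The median line drops from 0.156 to 0.0897, Ghrl and Npy lie far above it, and Ins2, Ppy, Gcg and Iapp lie below it (35 genes with an SD above 0.8 are outside the axis).

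Ins2 encodes one of the 2 mouse insulins, the hormone that lowers blood glucose (probe set 10569358). It read 13.30, 13.23, 13.30 and 13.33 in PrlR+/- 1 to 4, against 13.30, 13.28 and 13.36 in PrlR+/+ 1 to 3. The groups overlapped in part, with PrlR+/- 2 below every PrlR+/+ mouse and PrlR+/+ 3 above every PrlR+/- mouse. The means were 13.29 ± 0.04 in PrlR+/- and 13.31 ± 0.04 in PrlR+/+ islets (SD, n = 4 and 3), a difference of -0.02 ± 0.05 (SE) with a 95% interval from -0.15 to 0.11. On the array scale this interval spans ratios of 0.90 to 1.08.

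Iapp encodes amylin, which beta cells release with insulin and which slows gastric emptying (probe set 10542632). It read 13.40, 13.36, 13.52 and 13.52 in PrlR+/- 1 to 4, against 13.39, 13.41 and 13.45 in PrlR+/+ 1 to 3. PrlR+/- mice held both the highest values and the lowest. The difference was 0.03 ± 0.06 (SE), with an interval from -0.12 to 0.18.

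Ucn3 encodes urocortin 3, a peptide of mature beta cells, and in mice also a signal to delta cells through the receptor encoded by Crhr2 (probe set 10407431). It read 12.49, 12.43, 12.54 and 12.16 in PrlR+/- 1 to 4, against 12.42, 12.11 and 12.54 in PrlR+/+ 1 to 3. A single mouse of each genotype, PrlR+/- 4 and PrlR+/+ 2, stood about as low, and the other 5 lay between 12.42 and 12.54. The means were 12.41 ± 0.17 in PrlR+/- and 12.36 ± 0.22 in PrlR+/+ islets (SD, n = 4 and 3), a difference of 0.05 ± 0.13 (SE) with an interval from -0.26 to 0.35. Without PrlR+/+ 2 the difference was -0.075.

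Among the hormones of the other islet cells, Gcg, the precursor of glucagon, which raises blood glucose (probe set 10483074), read 13.48, 13.50, 13.63 and 13.57 in PrlR+/- 1 to 4, against 13.47, 13.50 and 13.51 in PrlR+/+ 1 to 3. PrlR+/- 3 and 4 lay above every PrlR+/+ mouse, and the other PrlR+/- mice lay within their range. The difference was 0.05 ± 0.06 (SE), with an interval from -0.09 to 0.19.

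Sst encodes somatostatin, which restrains the release of insulin and glucagon (probe set 10438730). It read 13.61, 13.70, 13.61 and 13.64 in PrlR+/- 1 to 4, against 13.66, 13.36 and 13.69 in PrlR+/+ 1 to 3. PrlR+/+ 2 was the 1 mouse that stood apart, below all others. The difference was 0.07 ± 0.09 (SE), with an interval from -0.14 to 0.28, and it was -0.035 without PrlR+/+ 2.

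Ppy encodes pancreatic polypeptide, which acts on gut and pancreatic secretion (probe set 10391555). It read 13.60, 13.65, 13.70 and 13.68 in PrlR+/- 1 to 4, against 13.63, 13.57 and 13.67 in PrlR+/+ 1 to 3. The groups overlapped, and all 7 mice lay within 0.13 of each other. The difference was 0.03 ± 0.06 (SE), with an interval from -0.10 to 0.17.

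Pyy, Ppy and Npy belong to one family of related peptides, and in the RefSeq gene table Ppy and Pyy are neighbours on chromosome 11 with 0 protein-coding genes between them. Pyy (probe set 10391561) encodes peptide YY, which is known as a gut hormone of satiety and is also made in islets. It read 13.13, 13.22, 12.93 and 12.88 in PrlR+/- 1 to 4, against 13.24, 12.92 and 12.91 in PrlR+/+ 1 to 3. PrlR+/- 1, PrlR+/- 2 and PrlR+/+ 1 lay within 0.11 of each other, and the third highest value was 0.20 above the fourth. The genotype difference was 0.02 ± 0.12 (SE), with an interval from -0.26 to 0.30.

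Npy encodes neuropeptide Y, a neuropeptide of sympathetic nerves that is also made in some islet cells (probe set 10538247). It read 11.35, 11.17, 10.53 and 10.65 in PrlR+/- 1 to 4, against 10.92, 10.63 and 10.61 in PrlR+/+ 1 to 3. The 3 highest mice were the ones that were highest for Pyy, PrlR+/- 1, PrlR+/- 2 and PrlR+/+ 1, and the third lay 0.27 above the fourth. Ppy did not share this order: its highest mice were PrlR+/- 3, PrlR+/- 4 and PrlR+/+ 3. The means of Npy were 10.93 ± 0.40 in PrlR+/- and 10.72 ± 0.17 in PrlR+/+ islets (SD, n = 4 and 3), a difference of 0.21 ± 0.21 (SE) with an interval from -0.29 to 0.70. Without PrlR+/- 1 the difference was 0.06, without PrlR+/- 3 it was 0.34, and with weights for array quality it was 0.42.

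**Figure D3:**
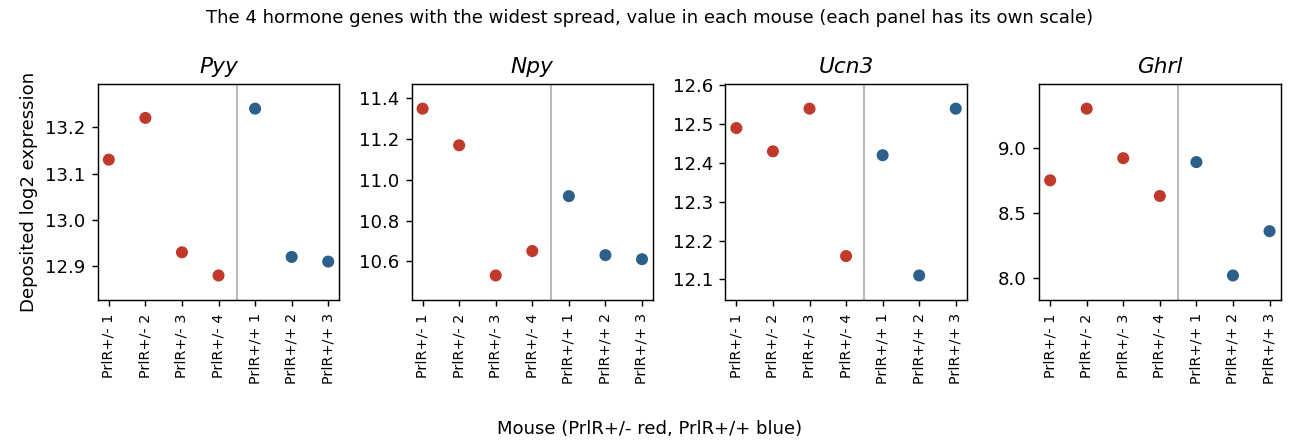
Deposited log2 expression (y axes, each panel on its own scale) of Pyy, Npy, Ucn3 and Ghrl in each mouse, PrlR+/- in red and PrlR+/+ in blue. PrlR+/- 1, PrlR+/- 2 and PrlR+/+ 1 are the 3 highest mice for both Pyy and Npy, Ucn3 is low in PrlR+/- 4 and PrlR+/+ 2, and Ghrl runs from 8.02 in PrlR+/+ 2 to 9.30 in PrlR+/- 2.

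Ghrl had the largest difference of the 9 hormones. It encodes ghrelin, a hormone of the stomach and of epsilon cells known to raise appetite and restrain insulin release (probe set 10546962). It read 8.75, 9.30, 8.92 and 8.63 in PrlR+/- 1 to 4, against 8.89, 8.02 and 8.36 in PrlR+/+ 1 to 3. All 4 PrlR+/- mice lay above the PrlR+/+ mean, but PrlR+/+ 1 lay above PrlR+/- 1 and PrlR+/- 4, so the groups overlapped. The means were 8.90 ± 0.29 in PrlR+/- and 8.42 ± 0.44 in PrlR+/+ islets (SD, n = 4 and 3), a difference of 0.48 ± 0.23 (SE), or a ratio of 1.39 with a 95% interval from 0.957 to 2.02 (limma, unadjusted p = 0.0758, adjusted p = 0.99). A larger absolute difference was measured for 130 genes, or 0.652%, and a smaller p for 833 genes. Without PrlR+/+ 2 the difference was 0.275, and without PrlR+/+ 1 it was 0.71. Duct and acinar transcripts were also high in PrlR+/- 2, where Ghrl was highest: the summed duct markers were at 11.92 to 12.58 in PrlR+/- and 11.71 to 12.50 in PrlR+/+ mice, with PrlR+/- 2 at 12.58. PrlR+/+ 2, where Ghrl was lowest, had the next highest duct sum, 12.50. The difference of Ghrl was 0.42 in a fit with the acinar marker mean held as a covariate. Whether duct or acinar tissue contributed to the Ghrl difference was not tested beyond this fit.

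**Figure D4:**
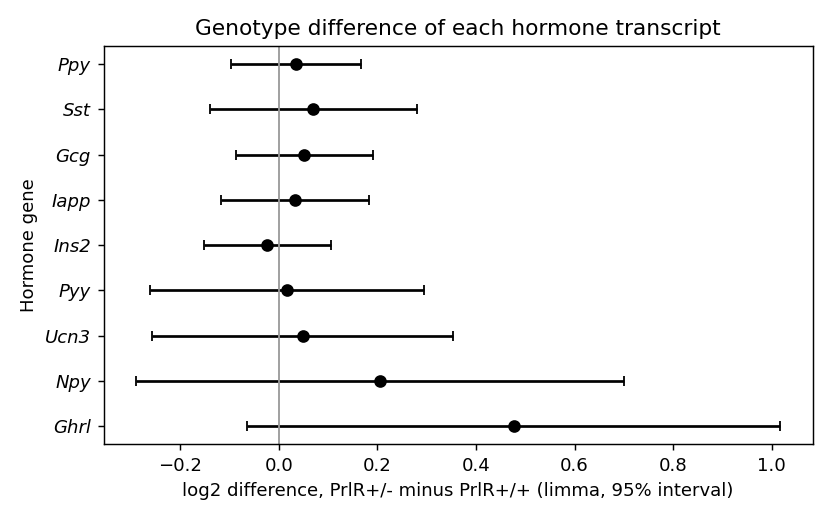
log2 difference of each hormone gene, PrlR+/- minus PrlR+/+ (x axis, points), with limma's 95% interval (bars) and a line at 0. Every interval includes 0; the 5 hormones at the top of the array have the 5 narrowest ones, and Ghrl has the widest, from -0.06 to 1.02.

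The intervals bound the size of a difference on the array scale. For 7 of the 9 hormones the 95% interval lay within a 1.5-fold change in either direction, while Npy and Ghrl were the 2 whose intervals reached beyond it. These bounds are for the array signal; how far they hold for transcripts near the top of the array was not tested.

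A search for the genes most like the 3 most variable hormones covered 5776 genes at or above the median level and spread. Clone and model names, which are Gm followed by digits or end in Rik, were left out. The 3 genes of highest Pearson correlation over the 7 arrays were named for each hormone, with no test. For Ghrl these were Gpx8, a peroxidase of the endoplasmic reticulum (r = 0.983), Myl9, a myosin light chain of smooth muscle (r = 0.977), and Jup, which encodes the junction protein plakoglobin (r = 0.959). For Npy they were Hapln1, a link protein of hyaluronan matrix (r = 0.953), Ambp, the precursor of alpha-1-microglobulin (r = 0.937), and Cartpt, which encodes the neuropeptide CART (r = 0.914). For Ucn3 they were the interferon regulatory factor gene Irf7 (r = 0.983), Nudt7, a peroxisomal hydrolase gene (r = 0.977), and the zinc finger gene Prdm10 (r = 0.972). High values were common over 7 points: the gene in place 100 still had r = 0.785 for Ghrl, 0.71 for Npy and 0.85 for Ucn3.

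Genes around the hormones were read in the same fit, and 0 of them passed in either direction. Of 18 transcription factors known to act on islet hormone genes, 8 had higher and 10 lower means, with a median difference of -0.01. Foxa2, a forkhead factor, was at 9.43 ± 0.20 in PrlR+/- against 9.21 ± 0.06 in PrlR+/+ islets (SD, n = 4 and 3), Hnf4a, a nuclear receptor, differed by -0.12 ± 0.07 (SE) and Nkx6-1, a homeodomain factor of beta cells, by 0.11 ± 0.06. Of 16 genes of hormone processing and granules, 8 were higher and 8 lower, with differences between -0.12 and 0.15. Scg5, the chaperone of the prohormone convertase PC2, differed by 0.15 ± 0.11, the granin gene Scg2 by 0.13 ± 0.13, and Slc30a8, the zinc transporter of insulin granules, by -0.06 ± 0.06 (SE).

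Of 23 genes for receptors of these hormones, for related receptors and for receptor partners, 16 had higher and 7 lower means, where 56.2% of all genes had higher means. The median was 0.04, and 8 had mean levels under 6. Ramp2, a partner of the calcitonin receptor family to which amylin receptors belong, read 8.27, 8.40, 8.46 and 8.58 in PrlR+/- 1 to 4, against 8.04, 8.17 and 8.11 in PrlR+/+ 1 to 3. All PrlR+/- mice lay above all PrlR+/+ mice, with a difference of 0.32 ± 0.08 (SE), which did not pass (limma, adjusted p = 0.99). Calcr, the calcitonin receptor gene, had a mean level of 5.32 and a difference of -0.10. Ramp1 and Ramp3 differed by -0.09 and 0.02. Crhr1, which encodes a receptor of corticotropin-releasing hormone, and Gcgr, the glucagon receptor gene, both differed by 0.12 ± 0.08.

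Among 39 genes listed as other peptide hormones and neuropeptides, 34 had higher and 5 lower means, where 56.2% of all genes had higher means. The median was 0.10, and 16 of the 39 had mean levels under 6. The list asked for Mln, and a match by synonym put Mrln in its place. Mrln is not a hormone gene and is counted among the 34, with a difference of 0.11. Vip, a neuropeptide of islet nerves known to stimulate insulin release, read 10.77, 10.55, 10.52 and 10.45 in PrlR+/- 1 to 4, against 10.05, 10.53 and 9.57 in PrlR+/+ 1 to 3. PrlR+/+ 2 lay among the PrlR+/- mice and the other 2 PrlR+/+ mice below them, with a difference of 0.52 ± 0.21 (SE). Penk, the enkephalin precursor, was at 8.27 ± 0.38 in PrlR+/- against 8.87 ± 0.34 in PrlR+/+ islets (SD, n = 4 and 3). Ucn, which encodes urocortin, a relative of urocortin 3, differed by 0.22 ± 0.08 (SE). These 3 of the 39 were the genes of the list with an unadjusted p under 0.05 (limma), between 0.0288 and 0.0392, against 2.2% of all genes. Limma's adjusted p was 0.99 for each of the 3.

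Markers of islet and other pancreatic cells were read to describe the samples. Beta cell markers were bright in every sample, with a mean log2 level of 11.63 to 11.93 in PrlR+/- and 11.79 to 11.98 in PrlR+/+ mice. Their summed level, as the log2 of the summed unlogged values of 11 markers, was 15.39 to 15.65 in PrlR+/- and 15.58 to 15.71 in PrlR+/+ mice. Alpha, delta and PP markers summed to 14.02 to 14.14, 12.00 to 12.47 and 12.54 to 12.71 in PrlR+/- mice, against 14.02 to 14.11, 11.99 to 12.38 and 12.52 to 12.54 in PrlR+/+ mice. Such sums lean on the brightest gene of a list and do not measure cell numbers. The brightest were Ttr (mean 13.06) for alpha, Rbp4 (11.99) for delta and Meis2 (11.79) for PP. Acinar transcripts were abundant in every sample, at 16.77 to 17.10 in PrlR+/- and 16.70 to 17.03 in PrlR+/+ mice, and 5 of the 16 markers were within 1 unit of the top of every array. Of these 16 markers 15 had higher means in PrlR+/- islets, with a median of 0.09, where 56.2% of all genes had higher means. None of the marker genes of any list passed the test (limma, 0 in each list). Means were higher in PrlR+/- islets for 2 of 11 beta, 6 of 8 alpha, 3 of 6 delta, 4 of 7 PP and 5 of 8 duct markers. The median differences of these lists were -0.088, 0.065, 0.014, 0.074 and 0.070 in that order. Means were also higher for 7 of 10 endothelial, 7 of 10 myeloid and 9 of 9 lymphocyte markers, with medians of 0.09, 0.03 and 0.10. The same held for 9 of 10 stellate cell and fibroblast and 8 of 8 Schwann cell and neuron markers, with medians of 0.09 and 0.17. Mean levels were under 6 for 3 myeloid, 4 lymphocyte, 2 stellate cell and fibroblast and 1 Schwann cell and neuron markers. The brightest lymphocyte marker, Cd79b, had a mean of 6.55, where the median of all probe sets on an array was 6.65 to 6.81. Over all genes, 2.24% had groups that did not overlap. The 2 genes of smallest unadjusted p per list were taken as examples, a choice that favours such genes. Of the examples, 6 had groups that did not overlap, all higher in PrlR+/- islets. These were the macrophage lysozyme gene Lyz2, at a difference of 0.64 ± 0.10 (SE, unadjusted p = 0.000291), the surface glycoprotein gene Thy1 at 0.34 ± 0.09, the endothelial sialomucin gene Emcn at 0.26 ± 0.09, the duct transcription factor gene Sox9 at 0.21 ± 0.12, the T cell receptor component gene Cd3d at 0.18 ± 0.07 and Etv1 of the alpha list at 0.17 ± 0.07. Limma's adjusted p was 0.99 for each of the 6, and Lyz2 has a close relative, Lyz1, that its probes may also read. Cd3d was dim, with a mean level of 4.93. Of the other islet examples, Slc2a2, the glucose transporter gene of beta cells, differed by -0.34 ± 0.21 (SE). It was lowest in PrlR+/- 4, at 11.31, against 11.94 to 12.18 in the other PrlR+/- mice and 12.16 to 12.39 in PrlR+/+ mice. The glutamate receptor gene Gria3 of the alpha list differed by -0.37 ± 0.21. The delta markers Rbp4 and Spock3 differed by 0.16 ± 0.14 and -0.17 ± 0.23, and the PP markers Meis2 and Aqp3 by 0.09 ± 0.06 and 0.11 ± 0.07 (SE). Outside the endocrine cells, Try4 and Cela2a of acinar cells differed by 0.44 ± 0.20 and 0.14 ± 0.12, Muc1 of ducts by 0.45 ± 0.34, Cdh5 of endothelium by 0.23 ± 0.10 and Dcn of fibroblasts by 0.29 ± 0.27. Mrc1 of macrophages was at -0.09 ± 0.08, Ighm of B cells at 0.17 ± 0.07, and the neuronal genes Uchl1 and Nefm both differed by 0.18, with SE of 0.08 and 0.09. The part of exocrine tissue in the hormone differences was not tested beyond the covariate.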

How the data were processed

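Islet RNA of 7 mice was measured with 1 Affymetrix expression array per mouse, with 250 ng of RNA labelled per array and RNA integrity numbers over 8.5. The authors deposited log2 values, which run from 1.73 to 13.97 with 2 decimals. No label states the scale, which was taken from the values. The arrays were processed, per the submitters' processing notes, with Affymetrix Expression Console 1.2.0.20, and its settings were not stated in the labels. Scan dates were not used here, and batches were not tested. The level of the targeted gene, which would check the genotype labels, was not analysed here.

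Of 35556 probe sets, 21789 had 1 symbol in the platform annotation, 1621 had several and 12146 were not listed. The probe set with the highest mean stood for a gene, which left 19938 genes with no filter. limma 3.58.1 in R 4.3.3 (lmFit and eBayes, 2-sided) gave differences and moderated standard errors, with all 7 mice and no covariates. Its steps were tested on simulated data. Tables were joined with pandas 2.3.3. The named genes were the hormones, up to 3 genes per related list and up to 2 per marker list by unadjusted p, and the 3 most correlated genes for each of 3 hormones. The hormones and all lists were chosen with earlier results of these data known. A probe set within 1 log2 unit of the highest value on its array was called near the top.

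Alternatives were an intensity trend or robust variances in eBayes, array weights, centring on medians, quantile normalization, a filter at the 40th percentile of gene means, a filter that asks 3 or more arrays to exceed their median probe set, averaging a gene's probe sets, the replicate number as a block, the acinar marker mean as a covariate, an adjusted p under 0.1 and leaving out each mouse.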

Additional observations from a re-analysis of the deposited data

Results flagged for a closer look

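A single mouse stood far from the other 3 of the PrlR+/- group in 2 of 24 sets of values checked, which were the 9 hormones and the 15 summed lists. No hormone was among them. Chance marks about 1 in 20 such groups. The summed level of 9 lymphocyte markers was 9.333 in PrlR+/- 4, against 9.039 to 9.081 in the other PrlR+/- mice. Of these 9 markers 4 had mean levels under 6. The summed level of 10 stellate cell and fibroblast markers was 11.948 in PrlR+/- 2, the mouse with the highest Ghrl value, against 11.677 to 11.718 in the other PrlR+/- mice. The part of these cells in the hormone values was not tested.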

How the results depend on the processing

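No alternative called a gene or a hormone: limma gave 0 calls in each, also at an adjusted p under 0.1, while the number of genes with an unadjusted p under 0.05 ran from 247 to 1132. The order of the 9 hormones was the same with quantile normalization; averaging probe sets could not change it, since each hormone had 1. The lowest adjusted p of a hormone in any alternative was 0.818. Of 17 alternatives, 5 (both variance models, both filters and averaging probe sets) leave a hormone's difference as it is. Of the 108 differences in the other 12, 11 changed sign, none of them for Gcg, Npy or Ghrl. The 108 hold 9 repeated values, because the replicate block and the fit without PrlR+/- 4 gave the same difference for each hormone. None of these repeated values changed sign. The number of hormones with a higher mean in PrlR+/- ran from 5 to 8. With array weights the differences of Ppy, Sst and Iapp were -0.0127, -0.0086 and -0.0047. With the acinar covariate those of Ins2 and Pyy were 0.0014 and -0.0177. The cause was not tested. Leaving out each mouse gave -0.035 to 0.13 for Sst, -0.0433 to 0.125 for Pyy, -0.075 to 0.14 for Ucn3, -0.04 to 0 for Ins2, 0.0633 to 0.337 for Npy and 0.275 to 0.71 for Ghrl. An unadjusted p under 0.05 was found for Ghrl without PrlR+/+ 1 (0.0128), with median centring (0.0346) and with quantile normalization (0.0454), and for Npy with array weights (0.0477), against adjusted p between 0.818 and 1 over the alternatives for these 2 genes. Across genes, the deviations of mice with the same replicate number had correlations of 0.0896, -0.386 and -0.0287. Pairs with different numbers ran from -0.238 to 0.398. Deviations were taken from the mean of the genotype, which ties these correlations to each other, so they cannot decide whether mice share a batch. The labels give no meaning to the number. PrlR+/- 4 is the only mouse with its number, so a replicate block takes this mouse out of the differences. With the block they were 0.567 for Ghrl, 0.297 for Npy and 0.13 for Ucn3, the same as without PrlR+/- 4. In the block fit 0 hormones and 0 genes were called. The number of arrays limits what can be seen, no background signal was used here, and saturation at the top of the array was not tested.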
